A study of Mus musculus with 4 samples.

Results

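The 10 genes described here are those that hepatocytes are known to gain when they lose their mature state in culture, called dedifferentiation, 7 of them markers of bile duct or progenitor cells and 3 of them targets of the transcriptional coactivator YAP. They were chosen by name: a gene was taken when the annotation of the array gave its symbol to a non-control probe. All 10 were found, with 12 probes, among 37074 gene names and 56605 distinct probes on the array. By the flag of the scanner software, 9 of the 10 had a probe well above background on at least 1 array, as did 20615 genes of the whole array, and 8 of the 10 were well above background on all 4 arrays.

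The cells were primary hepatocytes of C57BL/6 mice, freed with collagenase, seeded on collagen-coated plastic and harvested 24 h later. Drp1LiKO mice lack Dnm1l, which encodes the mitochondrial fission protein Drp1, in the liver, and the study's methods describe a floxed allele, male animals and floxed littermates as controls, with Cre driven by the albumin promoter, which is active in hepatocytes. The labels call the control cells wild-type in one field and Drp1flox in another. Cells of both genotypes were cultured without or with 200 μM palmitate (a saturated fatty acid), which makes 4 groups of 1 array, and neither the age of the animals nor any pooling of animals is stated in the labels. Since each group holds 1 array, the spread between animals or cultures is unknown, and this number of arrays limits how precise any value can be. Every array came from cultured cells and none from freshly isolated cells or liver, so the change from tissue to dish itself was not measured, and only differences between the 4 cultures are given.

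A bile duct cell and a hepatocyte arise from the same embryonic precursor, and adult hepatocytes can take up part of the biliary programme after injury or in culture. SOX9 and Notch signalling mark that path, and the simple-epithelial keratins 7 and 19 are its usual protein markers. YAP is held in check by the kinases of the Hippo pathway. When cells spread on a stiff surface, such as plastic, YAP and its relative TAZ enter the nucleus, bind TEAD factors on DNA, and switch on genes such as Ctgf, Cyr61 and Ankrd1.

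Values are normalized log2 intensities, in which 0 is the 75th percentile of the array, and a difference of 1 is 2-fold. A gene counted as past 2-fold in a pair of arrays if its values lay 1 log2 unit or more apart and the scanner flag put its probe well above background on 1 of the pair or both. Probes printed 10 times on the array gave the noise of single spots, and 2 times the SD of a difference between 2 spots of like brightness is called spot noise below. Probes of like brightness lay within 1 log2 unit. Per array they numbered 159 to 221 for Ctgf, 3 or 4 for Ankrd1 and 2 to 5 for the brighter Cd24a probe. Where they were few, spot noise is a rough figure. Spot noise covers the measurement on a slide, not the animals. The probe with the highest mean level stood for its gene where there were several. Levels are compared between arrays for the same probe and not between genes, since each probe binds its target with its own strength.

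The sequences of 4 array probes show what was read for the usual bile duct markers Krt19, Krt7 and Epcam, of which Krt7 and Epcam were faint, and for Sox9, whose probes differed in the size of the difference. All positions of probes are those the array annotation gives in mm9. The Krt19 probe (A_51_P356642) lies on chromosome 11 at 100002392 to 100002451 on the minus strand, and the Krt7 probe (A_52_P410685) on chromosome 15 at 101253718 to 101253777 on the plus strand. The Epcam probe (A_52_P447944) is annotated from 88048972 to 88049800 on the plus strand of chromosome 17, so its 60 bases span 829 genomic bases and cross at least 1 intron. The Sox9 probe shown (A_55_P2745144) lies on chromosome 11 at 112646642 to 112646701 on the plus strand, and is the dimmer of the Sox9 pair. Only probes open in at least 1 reading frame are shown, so each of these 60-base sequences is open by choice. The brighter Sox9 probe was left out by that rule.
Krt19 probe: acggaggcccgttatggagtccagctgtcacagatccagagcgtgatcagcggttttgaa
Krt7 probe: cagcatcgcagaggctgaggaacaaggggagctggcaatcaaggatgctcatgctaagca
Epcam probe: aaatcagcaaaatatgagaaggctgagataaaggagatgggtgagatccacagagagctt
Sox9 probe: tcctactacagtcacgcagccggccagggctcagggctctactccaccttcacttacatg

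Promoters were available in RefSeq (GRCm38.p6) for 6 of the 10 genes, namely Krt7, Krt23, Epcam, Spp1, Cyr61 and Ankrd1. They were searched for GGAATG, the core that TEAD factors bind, for TGANTCA, bound by AP-1, and for the CArG box, bound by serum response factor, on both strands from 250 bases before to 50 bases after the start. GGAATG was present in the promoters of Cyr61 and Ankrd1 and in none of the promoters of Krt7, Krt23, Epcam and Spp1, and 14.7% of all 32851 promoters held it. Ankrd1 had it at 2 places, beginning 210 and 123 bases before the start, whereas 1.36% of all promoters held it at 2 or more places. Cyr61 had it once, on the opposite strand, at 103 bases before the start. Neither of the other motifs was present in these promoters, against 7.81% of all promoters with TGANTCA and 1.63% with a CArG box, and no overlap between motifs arose. A match is a description of the letters, and an absent match says only that they are not in this window. The 250 bases before the start are given for the YAP targets that hold GGAATG and for Krt23, the gene with the largest difference between the genotypes, with GGAATG or its reverse complement in capitals: Cyr61 at chr3:145649986-145650235, Ankrd1 at chr19:36119845-36120094 and Krt23 at chr11:99493121-99493370, all on the minus strand and written 5′ to 3′ of the gene.
Cyr61 (Ccn1) promoter: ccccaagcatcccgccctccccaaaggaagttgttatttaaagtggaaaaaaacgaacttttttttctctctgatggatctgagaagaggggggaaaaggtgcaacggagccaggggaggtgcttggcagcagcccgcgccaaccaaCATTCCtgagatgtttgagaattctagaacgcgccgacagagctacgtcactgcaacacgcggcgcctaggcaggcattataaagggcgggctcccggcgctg
Ankrd1 promoter: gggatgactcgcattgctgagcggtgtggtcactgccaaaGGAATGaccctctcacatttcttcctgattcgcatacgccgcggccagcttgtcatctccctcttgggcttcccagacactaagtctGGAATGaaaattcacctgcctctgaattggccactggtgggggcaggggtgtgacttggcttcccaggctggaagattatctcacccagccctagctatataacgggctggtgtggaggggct
Krt23 promoter: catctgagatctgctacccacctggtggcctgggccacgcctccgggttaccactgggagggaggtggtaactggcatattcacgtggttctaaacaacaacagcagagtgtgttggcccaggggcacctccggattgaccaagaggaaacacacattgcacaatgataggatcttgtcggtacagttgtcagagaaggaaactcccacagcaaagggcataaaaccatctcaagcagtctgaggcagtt

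As a check of the labels, Dnm1l read 2.42 in control and 1.07 in Drp1LiKO untreated, and 2.43 and 1.01 with palmitate, so the targeted gene was lower on both Drp1LiKO arrays. Between 44.7% and 51.1% of probes were well above background, no spot was saturated, and the median SD between repeat spots was 0.034 to 0.038 log2 units. The codes of the scanner tables place both untreated arrays on 1 slide and both palmitate arrays on another, so palmitate and slide cannot be told apart. Each slide holds both genotypes, so a genotype difference lies within a slide. Hepatocyte markers were present: the untreated control array detected 21 of the 23 present on the array, and Alb read between 8.73 and 9.03 on the 4 arrays.

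Krt23 was the member with the largest difference between the genotypes and the only one whose representing probe was past 2-fold on both slides and well above background throughout. It codes for keratin 23, an acidic epithelial keratin. Krt23 read −2.57 in control, −0.24 in Drp1LiKO, −2.09 in control with palmitate and 0.12 in Drp1LiKO with palmitate (A_51_P287198, chromosome 11 at 99339393 to 99339452, minus strand). Both Drp1LiKO arrays were above both control arrays. The difference was 2.33, or 5.03-fold, untreated and 2.21, or 4.64-fold, with palmitate, against a spot noise of 0.287 and 0.265. Among genes well above background on both arrays of a pair it ranked 127 of 17652 by excess in Drp1LiKO untreated and 104 of 16784 with palmitate. The gene was also higher with palmitate in each genotype, by 0.48 in control and 0.36 in Drp1LiKO, both over the spot noise of 0.324 and 0.219 and both under 2-fold.

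**Figure D1:**
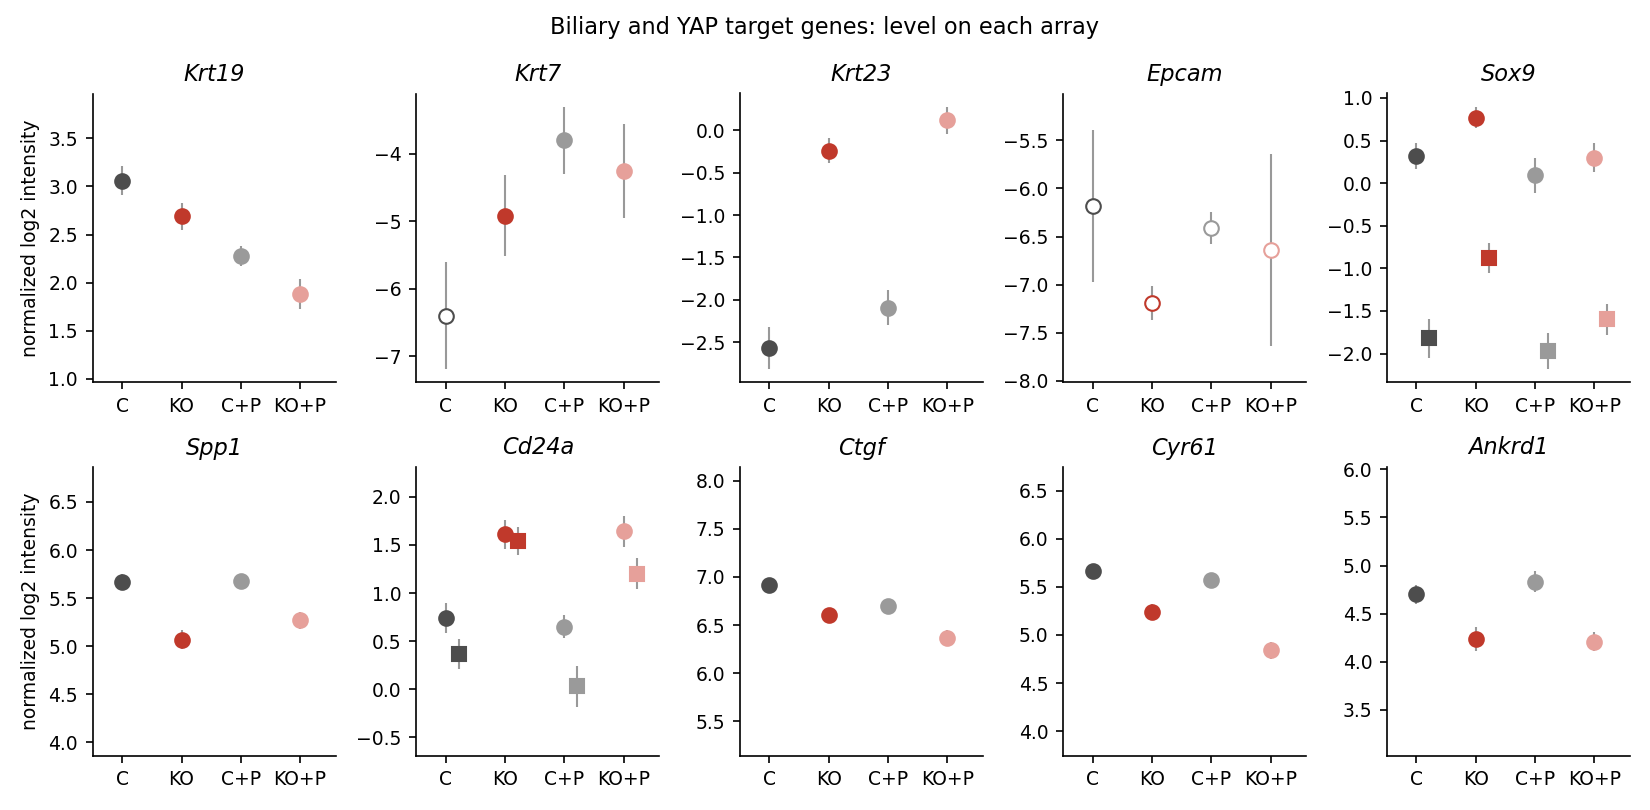
Normalized log2 intensity (0 is the 75th percentile of the array) of the 10 genes on the control (C), Drp1LiKO (KO), control with palmitate (C+P) and Drp1LiKO with palmitate (KO+P) arrays. Each point is 1 array, bars are 2 times the SD between repeat spots of like brightness, open points are not well above background, squares are the second probe of Sox9 and Cd24a, and axes differ in range. Krt23 and Cd24a are higher on both Drp1LiKO arrays, Krt19 is highest in control and lowest in Drp1LiKO with palmitate, and Epcam is not well above background on any array.

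Krt19 and Krt7, the keratins used to stain bile ducts, did not follow Krt23. Krt19 read 3.06 in control, 2.69 in Drp1LiKO, 2.28 in control with palmitate and 1.88 in Drp1LiKO with palmitate. Its order from highest to lowest was thus control, Drp1LiKO, control with palmitate and Drp1LiKO with palmitate, and each step, of 0.37 to 0.41, was over the spot noise. Drp1LiKO was lower than control by a log2 difference of −0.37 untreated and −0.40 with palmitate. Of genes well above background on both arrays, 34.7% and 25.1% differed by as much.

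Krt7 was faint everywhere. It read −6.40 in control, where it was not well above background, −4.92 in Drp1LiKO, −3.80 in control with palmitate and −4.26 in Drp1LiKO with palmitate. The untreated difference between the genotypes was 1.47 and past 2-fold by its values, but on the untreated control array the lowest reading well above background was −4.74, above the Drp1LiKO reading, so no fold can be given. With palmitate Krt7 was lower in Drp1LiKO by a log2 difference of −0.45, within its spot noise of 0.858. The steps among the 3 measured arrays, 0.45 and 0.66, were all within spot noise.

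Epcam, the surface adhesion molecule of bile duct and progenitor cells, was not well above background on any array. It read −6.18, −7.19, −6.41 and −6.64 in the order control, Drp1LiKO, control with palmitate and Drp1LiKO with palmitate, and no fold is given. Ranked by level, neighbouring arrays did not differ beyond spot noise. The untreated genotype difference of −1.01 was over its spot noise of 0.808, but neither of its readings was well above background.

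Sox9, the transcription factor of the biliary lineage, is read by 2 probes that agreed in direction and differed in size. The brighter one (A_55_P2798454, chromosome 11 at 112647560 to 112647619, plus strand) read 0.32 in control, 0.77 in Drp1LiKO, 0.09 in control with palmitate and 0.30 in Drp1LiKO with palmitate. Drp1LiKO was higher by 0.45 untreated, over the spot noise of 0.202, and by 0.21 with palmitate, within the spot noise of 0.271. The dimmer probe read −1.82, −0.88, −1.97 and −1.60 in the same order. Its differences were 0.93 untreated, which is 1.91-fold, and 0.37 with palmitate, over the spot noise of 0.288 and 0.277. On both probes the untreated Drp1LiKO array was the highest. Ranked by level, the other 3 arrays did not differ from their neighbours beyond spot noise. On the dimmer probe the 2 palmitate arrays, which were not neighbours, did differ beyond it.

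Spp1 codes for osteopontin, a secreted phosphoprotein made by bile duct cells and also by macrophages. It read 5.67 in control, 5.07 in Drp1LiKO, 5.68 in control with palmitate and 5.27 in Drp1LiKO with palmitate (A_51_P358765, chromosome 5 at 104869788 to 104869847, plus strand). Both Drp1LiKO arrays were below both control arrays, with differences of −0.60 and −0.40 against a spot noise of 0.123 and 0.110. Among genes well above background on both arrays, 18.9% untreated and 24.5% with palmitate differed by as much.

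Cd24a, a surface sialoglycoprotein of progenitor cells and of many leukocytes, was higher on both Drp1LiKO arrays with each of its 2 probes, which lie on chromosome 10 at 43303932 to 43303991 and at 43303706 to 43303765, plus strand. The brighter probe (A_55_P2866057) read 0.74 in control, 1.61 in Drp1LiKO, 0.65 in control with palmitate and 1.64 in Drp1LiKO with palmitate, so that Drp1LiKO was higher by 0.87 (1.83-fold) and 0.99 (1.99-fold). The other probe (A_52_P244193) read 0.37, 1.54, 0.03 and 1.20 in the same order, and its difference was 1.17 in both comparisons, past 2-fold. The brighter probe, which stands for the gene, just missed the 2-fold limit. For scale, the probes of 5577 genes with several measured probes differed by a median of 0.27 in the untreated genotype difference and 0.18 in that with palmitate.

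The 3 YAP targets were lower on the Drp1LiKO array of each slide, and none passed 2-fold. Ctgf, now Ccn2, codes for connective tissue growth factor, a secreted matricellular protein. It read 6.92 in control, 6.60 in Drp1LiKO, 6.70 in control with palmitate and 6.37 in Drp1LiKO with palmitate (A_51_P157042, chromosome 10 at 24318281 to 24318340, plus strand). Its differences between the genotypes were −0.31 and −0.33, with a spot noise of 0.104 and 0.103.

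Cyr61, now Ccn1, codes for a related matricellular protein. It read 5.66, 5.24, 5.57 and 4.84 in the order control, Drp1LiKO, control with palmitate and Drp1LiKO with palmitate (A_51_P252859, chromosome 3 at 145310187 to 145310246, minus strand). The difference was −0.42 untreated and −0.73 with palmitate, or 1.34-fold and 1.66-fold in favour of control.

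Ankrd1 codes for an ankyrin repeat protein of muscle that YAP induces in many adherent cells. It read 4.70, 4.24, 4.83 and 4.21 in the same order (A_52_P120803, chromosome 19 at 36186809 to 36186868, minus strand). Both Drp1LiKO arrays, 0.03 apart, lay below both control arrays, 0.13 apart, and the differences between the genotypes were −0.46 and −0.62. The 3 genes therefore shared their direction on both slides, and the size of each difference was over its spot noise. Differences of such a size were common among genes well above background on both arrays. Untreated and with palmitate, 40.6% and 31.1% of those genes differed by as much as Ctgf. The shares were 30.2% and 9.96% for Cyr61, and 26.6% and 13.0% for Ankrd1.

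Counted over the 9 genes with a detected probe, 2 were past 2-fold between the genotypes untreated, both higher in Drp1LiKO, namely Krt23 and the faint Krt7. Of all 19875 genes tested, 14.4% were past 2-fold in either direction 8.84% being higher in Drp1LiKO and 5.58% lower. With palmitate 1 of 9 was past 2-fold, Krt23, against 11.5% of 18890 genes, 7.26% being higher and 4.26% lower. Where both arrays of the pair had to be well above background, Krt23 was the only member past 2-fold in each comparison, of 8 and of 9 members, against 7.81% of 17652 genes and 5.56% of 16784 genes. The median over the 7 biliary and progenitor genes, of which 6 were measured, was 0.66 untreated and −0.09 with palmitate. The first rests on the untreated Krt7 value, and was 0.45 with both arrays well above background, 0.24 with normexp background correction, 0.13 with values below background raised to the lowest above it and 1.05 with the dimmest measured probe of each gene. The median over Ctgf, Cyr61 and Ankrd1 was −0.42 and −0.62, and over all genes −0.02 and −0.03. Of all untreated genotype calls 61.3% were higher in Drp1LiKO, or 49.9% when arrays were centred on the median, a scaling that moved the median of all genes to −0.20.

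**Figure D2:**
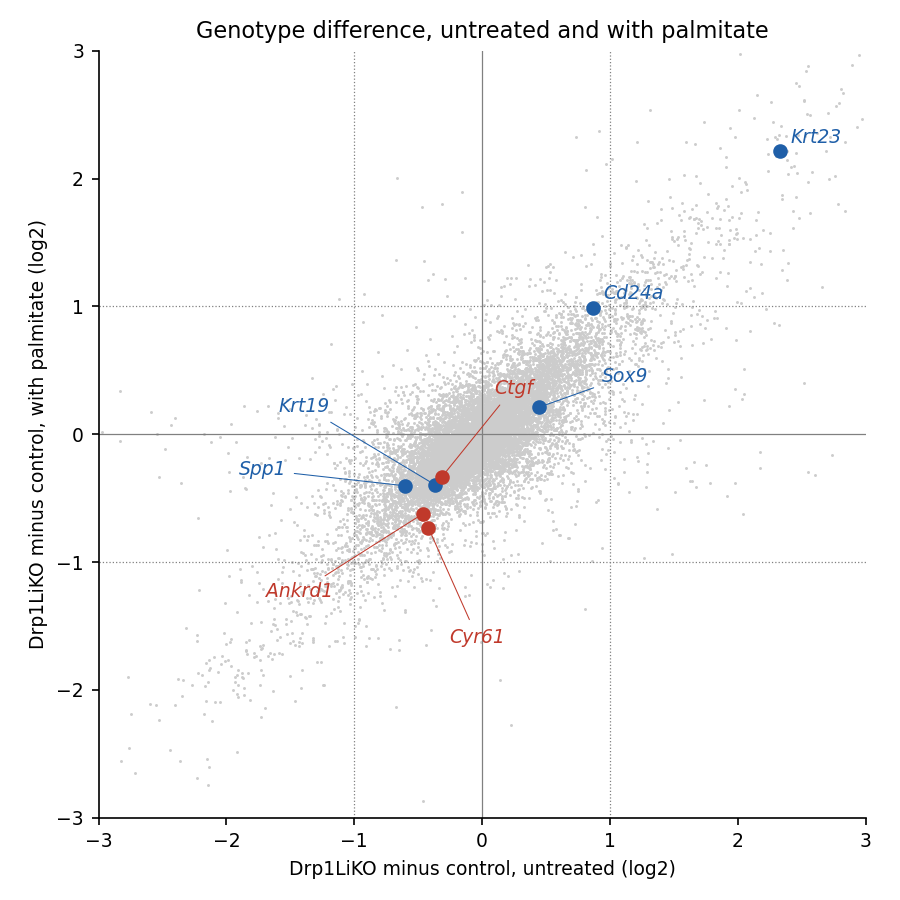
Log2 difference of Drp1LiKO minus control, untreated (x axis) against with palmitate (y axis), for 16611 genes well above background on all 4 arrays (grey) and the 8 such members (blue for biliary and progenitor genes, red for YAP targets). Dotted lines mark 2-fold, and genes beyond 3 on either axis are not drawn. Krt23 lies at 2.33 and 2.21, Cd24a at 0.87 and 0.99, and Ctgf, Cyr61 and Ankrd1 are below 0 on both axes.

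A model over all 4 arrays, with genotype and palmitate as terms, gave the genotype difference with 1 residual degree of freedom. That residual is how far apart the genotype differences of the 2 slides lie. It does not measure a spread between replicate animals or cultures. In limma, 0 of 20615 genes passed a Benjamini-Hochberg adjusted p of 0.05 (0% called), while 5363 genes had an unadjusted p under 0.05. The adjusted p of the 9 members in limma ran from 0.119 for Krt23 (2.27 ± 0.08, SE) to 0.634 for Krt7 (0.51 ± 0.66, SE). For Cd24a it was 0.121 (limma, 0.93 ± 0.08, SE), for Ankrd1 0.147 (limma, −0.54 ± 0.09, SE) and for Cyr61 0.177 (limma, −0.58 ± 0.13, SE). With an intensity trend in the same limma model 5354 genes, 26.0%, were called, and 7 of the 9 members were among them. Without the trend, limma called 15.6% of genes when it was fitted on genes well above background on all arrays, and 7.36% after another background correction (normexp). In limma with the intensity trend Krt23 had an adjusted p of 0.000192, Cd24a 0.00114, Ankrd1 0.00327, Spp1 0.00405, Ctgf 0.00431, Cyr61 0.00556 and Krt19 0.0145, while Sox9, at 0.0539, and Krt7, at 0.647, were not called. The calls by genotype thus depend on how that residual spread is modelled, and the SEs and p values do not cover the animals.

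Under palmitate, Krt19 had the largest shift among members well above background on all 4 arrays, and it was lower in both genotypes. Palmitate minus untreated was −0.78 in control and −0.81 in Drp1LiKO, a ratio of 1.72-fold and 1.75-fold in favour of the untreated array, with a spot noise of 0.184 and 0.213. Among genes well above background on both arrays, Krt19 ranked 71 of 16829 by how much lower it was in control, and 207 of 17853 in Drp1LiKO. It remained under 2-fold in both. The control and Drp1LiKO responses rest on separate arrays, and each shares its arrays with the genotype comparisons.

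Sox9 was lower with palmitate on the brighter probe by −0.23 in control, within its spot noise of 0.262, and −0.47 in Drp1LiKO, and on the dimmer one by −0.15 and −0.71. Ctgf was lower by −0.21 and −0.23 in control and Drp1LiKO. Cyr61 differed by −0.09 in control, within its spot noise of 0.107, and by −0.41 in Drp1LiKO. Ankrd1 differed by 0.13 and −0.03, and Spp1 by 0.01 and 0.20. Cd24a differed by −0.09 and 0.03 on its brighter probe and by −0.33 and −0.34 on the other.

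In control cells 1 of 9 members was past 2-fold with palmitate, the faint Krt7, whose 2.59 amounts to at least 1.91-fold once its untreated value below background is replaced by its bound. Of all 18772 genes tested, 5.70% were past 2-fold there. In Drp1LiKO cells 0 of 9 members were, against 7.04% of 19747 genes. Palmitate was not tested, since it cannot be told apart from the slide. The difference of the 2 responses, Drp1LiKO minus control, was −0.03 for Krt19, −0.12 for Krt23, −0.02 for Ctgf, −0.16 for Ankrd1 and −0.31 for Cyr61, and it was −0.57 for the dimmer Sox9 probe and −0.23 for the brighter. No member well above background on all arrays reached 2-fold in it, as 1.79% of 16611 such genes did.

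**Figure D3:**
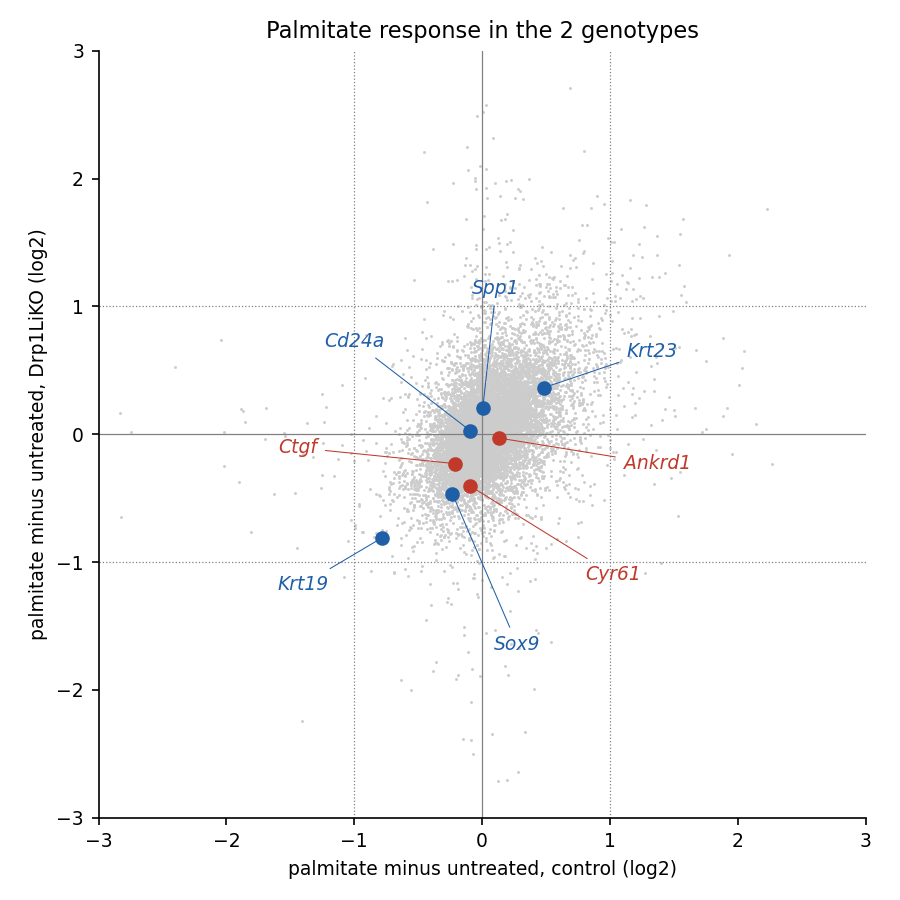
Log2 difference of palmitate minus untreated in control (x axis) against Drp1LiKO (y axis), for 16611 genes well above background on all 4 arrays (grey) and the 8 such members (blue for biliary and progenitor genes, red for YAP targets). Dotted lines mark 2-fold, and genes beyond 3 on either axis are not drawn. Krt19 lies at −0.78 and −0.81, and no member crosses a dotted line.

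Other biliary genes, a list of 20 without the members, moved in both directions between the genotypes. Untreated, 4 of 14 tested were past 2-fold higher in Drp1LiKO and 1 lower, with a median of 0.13. That median turned negative when arrays were centred on the median and when a gene was read as the mean of its probes. It also did so without a background filter and with both arrays well above background (−0.06). With palmitate 2 of 12 were higher and 1 lower, with a median of −0.02. Over all genes 8.84% were higher and 5.58% lower untreated, and 7.26% and 4.26% with palmitate. Where both arrays were well above background, 2 of 11 were higher and 1 lower untreated, and 0 of 10 and 1 with palmitate. Bicc1, an RNA-binding protein of renal and bile duct epithelium, fell past 2-fold on both slides, from 1.64 to −0.07 untreated and from 1.37 to −0.29 with palmitate. Cldn4, a tight junction claudin, read 0.91 in control, 3.20 in Drp1LiKO, 0.55 in control with palmitate and 1.42 in Drp1LiKO with palmitate, so that its difference was 2.29 untreated and 0.87 with palmitate.

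Aqp1, the water channel of bile duct cells and of endothelium, differed by 1.22 untreated and by 0.46 with palmitate, higher in Drp1LiKO in both. Pkhd1, the gene of fibrocystin in the primary cilium of bile duct cells, differed by −0.86 and −0.56. The epithelial transcription factors Ehf and Grhl2 were well above background on the Drp1LiKO arrays alone, with differences of 2.15 and 2.85 untreated whose lower bounds were 0.14 and 0.98, under 2-fold. Cftr, Ggt1, Sctr, Muc1 and Anxa13 were detected on no array. Thus Epcam, Cftr and Sctr, which define bile duct cells, were not detected, while Krt19, Sox9, Spp1 and Cd24a were.

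Of 11 Notch pathway genes 6 were measured, and none of the 6 passed 2-fold in either genotype comparison, against 14.4% and 11.5% of all genes. Notch1, a receptor, was higher in Drp1LiKO by 0.80 and 0.61 and higher with palmitate by 0.80 and 0.62. Notch3 differed by −0.33 and −0.36 between the genotypes, the ligand gene Jag1 by 0.12 and 0.52, and the target Hes1 by −0.20 and −0.40. No array detected Jag2, Dll4, Hey1, Hey2 or Nrarp.

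Of 22 further YAP targets, 21 were tested untreated and 4 were past 2-fold higher in Drp1LiKO and 4 lower, with a median of −0.18. With palmitate 3 of 20 were higher and 4 lower, with a median of −0.37. Of all genes, 8.84% were past 2-fold higher and 5.58% lower untreated, and 7.26% and 4.26% with palmitate. The shares of this list were larger in each case. Where both arrays were well above background, 2 of 19 were higher and 4 of 19 lower in each comparison. Of all such genes, 7.81% untreated and 5.56% with palmitate were past 2-fold in either direction. Below 0 were 13 of 21 untreated and 14 of 20 with palmitate, that is 61.9% and 70.0%, against 52.2% and 53.7% of all genes tested. The median kept its sign under all alternatives of the processing.

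Birc5, the inhibitor of apoptosis survivin, which is also a gene of cell division, fell from 3.61 to 1.26 untreated and from 3.72 to 1.68 with palmitate. Nuak2, a kinase of the AMPK family, fell from 0.46 to −1.26 and from 0.83 to −0.84. The ecto-nucleotidase gene Nt5e differed by −1.09 and −1.25, and Arhgef17 by −1.37 and −1.06. Ccdc80, a secreted matrix protein, rose from −3.76 to −1.77 and from −3.99 to −2.38, and Ptpn14, a phosphatase that binds YAP and restrains it, rose from 1.22 to 2.52 and from 1.37 to 2.53. Further targets often read beside Ctgf and Cyr61 were under 2-fold, with differences of −0.54 and −0.78 for Amotl2, −0.69 and −0.73 for Lats2, and −0.75 and −0.93 for Crim1. Gadd45a went the other way, by 0.52 and 0.53. Amotl1 was well above background on the Drp1LiKO arrays alone, with differences of 1.33 and 1.73 whose lower bounds were 1.24 and 0.75. Rbms3, well above background in untreated Drp1LiKO alone, differed by 2.77 untreated, with a lower bound of 0.64. By their values Nt5e, Arhgef17 and Amotl1 were past 2-fold on both slides. Amotl2, Lats2, Crim1, Gadd45a and Rbms3 were chosen after their values were seen.

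The pathway itself was measured in full, with all 17 genes of the Hippo and TEAD list well above background on the 4 arrays. Of these, 1 was past 2-fold in both comparisons, or 5.88% against 14.4% and 11.5% of all genes: Tead4, which encodes one of the DNA-binding partners of YAP, fell from −0.62 to −1.94 untreated and from −0.93 to −1.98 with palmitate. Tead3 differed by −0.70 and −0.72, Tead2 by −0.57 and −0.35, and Yap1 by −0.46 and −0.29. In all, 15 of 17 genes were below 0 in each comparison, or 88.2%, against 52.2% and 53.7% of all genes, with medians of −0.21 and −0.10. Centring arrays on the median lowers each genotype difference by the same amount, and the medians of the list lay between −0.39 and −0.03 untreated and between −0.24 and −0.01 with palmitate over all alternatives. With palmitate against untreated, none of the genes in the YAP target, Hippo, Notch and keratin lists was past 2-fold in either genotype, against 5.70% and 7.04% of all genes.

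The keratins and cytoskeletal genes of spread epithelial cells had 2 of 13 past 2-fold, or 15.4%, both higher in Drp1LiKO on both slides, against 8.84% of all genes higher untreated and 7.26% with palmitate. Krt8, the partner of the acidic keratins in hepatocytes, read between 8.53 and 8.66 on the 4 arrays, and Krt18, its usual partner there, between 9.29 and 9.53. Krt20, a keratin of gut epithelium, rose from 0.72 to 2.20 and from 0.31 to 1.91. Anxa1, an annexin, rose from −2.29 to −0.37 and from −2.05 to −0.26. Median differences of the list were −0.03 and −0.08, with a sign that turned under quantile normalization.

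**Figure D4:**
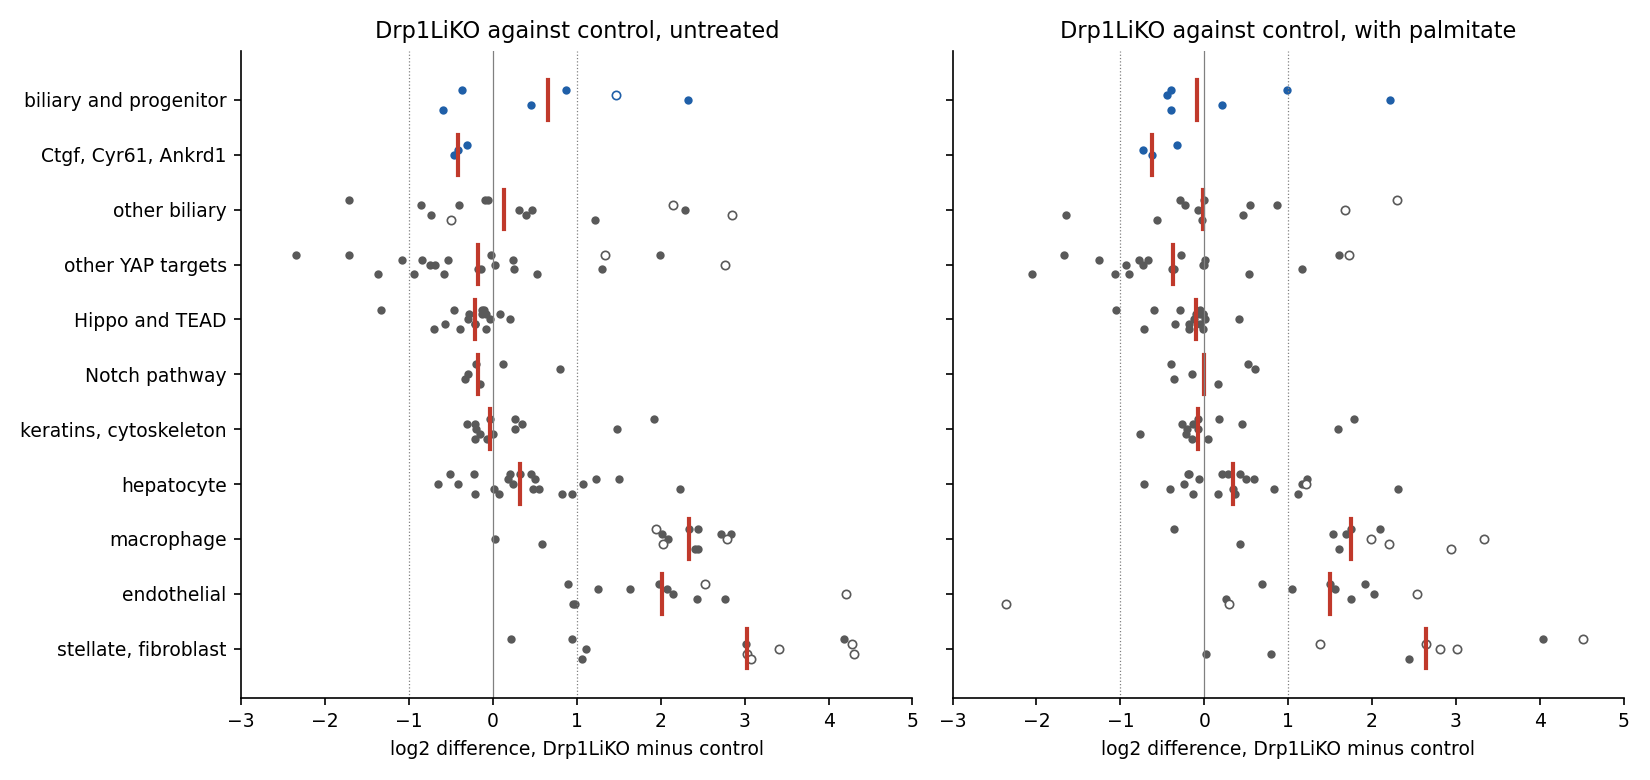
Log2 difference of Drp1LiKO minus control, untreated (left) and with palmitate (right), for each gene of 11 lists well above background on at least 1 of the 2 arrays. Filled points are well above background on both arrays and open points on 1, red bars are list medians, and dotted lines mark 2-fold. The medians of Ctgf, Cyr61 and Ankrd1 lie at −0.42 and −0.62, while those of macrophage, endothelial and stellate markers lie between 1.50 and 3.03, and between 0.60 and 1.56 with normexp background correction.

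Loss of mature function is the other side of dedifferentiation, and hepatocyte markers were read on the same arrays. Of 21 tested in each comparison, 4 were past 2-fold higher in Drp1LiKO untreated and 5 with palmitate, against 8.84% and 7.26% of all genes, and none was lower, against 5.58% and 4.26%, with medians of 0.32 and 0.34, although the 5 include Pck1, which was well above background in Drp1LiKO with palmitate alone. Cyp3a11, a drug-metabolising cytochrome P450, rose from 0.60 to 2.83 and from 0.18 to 2.49. Tat, tyrosine aminotransferase, rose from −1.68 to −0.18 and from −1.63 to −0.41, and Tdo2, which degrades tryptophan, from 0.34 to 1.41 and from 0.20 to 1.36. Cps1 was higher in Drp1LiKO by 0.94 untreated and by 1.12 with palmitate. Hnf4a, the factor that maintains hepatocyte identity, differed by 0.07 and 0.16, Alb by 0.20 and 0.28, and Cyp2e1, a cytochrome P450 of the central vein region, by −0.66 and −0.72, all 3 named after their values were seen.

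Markers of the other liver cells differed between the genotypes on the same arrays. Of 13 macrophage markers tested untreated, 11 were past 2-fold higher in Drp1LiKO and none lower, with a median of 2.34, and with palmitate 9 of 11 were higher, with a median of 1.75. Of 12 endothelial markers 9 were higher untreated, with a median of 2.02, and 7 of 11 were higher and 1, Tek, lower with palmitate, with a median of 1.50. Of 11 stellate and fibroblast markers 9 were higher untreated, with a median of 3.03, and 7 of 9 with palmitate, with a median of 2.64. Of all genes, 8.84% and 7.26% were past 2-fold higher. Many of these probes were below background on the control array. Where both arrays were well above it, the numbers past 2-fold higher were 8 of 10, 7 of 10 and 4 of 6 untreated and 5 of 7, 6 of 8 and 2 of 4 with palmitate, in the order macrophage, endothelial and stellate, and the medians were 2.37, 1.80 and 1.09 untreated and 1.61, 1.53 and 1.61 with palmitate. With normexp background correction the medians were 1.56, 0.97 and 0.72 untreated and 0.93, 0.60 and 0.65 with palmitate.

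Summed over each list, with every array's 75th percentile as the unit, macrophage markers came to 18.2 in control, 45.9 in Drp1LiKO, 23.6 in control with palmitate and 43.4 in Drp1LiKO with palmitate. Endothelial markers summed to 2.37, 6.96, 2.45 and 4.97, and stellate and fibroblast markers to 45.3, 62.8, 46.5 and 59.4 in the same order. Most of the stellate sum came from the probe of Acta2, smooth muscle actin, and without it the sum was 1.13, 11.2, 1.25 and 13.4. Leaving out the brightest gene of the other lists gave 13.4, 26.4, 18.1 and 25.8 for macrophage markers without Cd68. For endothelial markers without Stab1 it gave 1.67, 5.68, 1.64 and 3.66. Mesothelial markers, from cells that also carry Krt7 and Krt19, summed to 0.146, 0.351, 0.0920 and 0.174, with Upk3b, Upk1b, Lrrn4 and Gpm6a not well above background on any array. Timd4, Cd163 and Des, which define resident macrophages, a macrophage state and stellate cells, were not detected on any array either. In a bulk culture fewer cells of a type and less RNA per cell cannot be told apart. Spp1 and Cd24a are also expressed by leukocytes and Ctgf, Cyr61 and Sox9 by stellate cells, and the part of such cells in the genotype differences was not tested. Against the control array of the same slide, Krt23 and Cd24a were higher in Drp1LiKO and Krt19, Spp1, Ctgf, Cyr61 and Ankrd1 lower. Sox9 was higher too, but within spot noise on its brighter probe with palmitate.

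The genes whose 4 array values ran most like those of a member were sought among 16611 genes well above background on all 4 arrays, by the root mean square distance after subtracting each gene's mean over the 4 arrays. This was done for members that spanned at least 1 log2 unit, Krt23 and Krt19. Nearest to Krt23 were Phf11b at 0.043, Spink1 at 0.067 and Ccbe1 at 0.120 log2 units, and Spink1, a trypsin inhibitor, read −3.10, −0.78, −2.74 and −0.56 in the order control, Drp1LiKO, control with palmitate and Drp1LiKO with palmitate. Nearest to Krt19 were Sytl5 at 0.055, 2810416G20Rik at 0.084 and Abca5 at 0.086. With 4 points, a like order is a description only.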

How the data were processed

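The authors labelled RNA with 1 dye and hybridised it to a mouse whole-genome array, 1 array for each of 4 groups taken from the sample labels. The deposited files of the scanner give linear intensity values, 1 file an array, background-subtracted within each array by Feature Extraction, version 10.7.1.1 in the file headers and 9.5.1.1 in the submitters' processing notes. A second deposited table, of intensity values the authors had processed, held the same sorted values on every array to within 0.0010 log2 units and was used as an alternative. Labels and methods disagree on the RNA extraction kit. By its label, the untreated control array shares its raw data with a sample from another series.

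From the log2 of each intensity, that array's 75th percentile was subtracted, so a change shared by most transcripts is not visible. Control spots and outlier spots were left out. A probe below background on 1 array of a pair gives a bound, the brighter value minus the dim value, or minus the lowest value well above background on the dim array where that is higher. Genotype was fitted with palmitate in limma 3.58.1 (R 4.3.3; lmFit, eBayes, two-sided, Benjamini-Hochberg), and the fit was tested on simulated data. No other test was made, since each group holds 1 array. Named genes were all members and, of each list, up to 4 genes with the largest mean genotype difference well above background on all 4 arrays, genes past 2-fold the same way in both genotype comparisons where few were counted, and the 3 genes most like a member. The members, the gene lists and the tests were chosen with earlier results of these data known. Probes were named by the array's own annotation, and all 10 members matched RefSeq by accession. Other normalizations, background corrections, probe choices and filters were tried as alternatives.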

Additional observations from a re-analysis of the deposited data

How the results depend on the processing

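Krt23 stayed past 2-fold in both genotype comparisons under all 11 alternatives, with differences of 1.71 to 2.35 untreated and 1.68 to 2.22 with palmitate, and Ctgf, Cyr61 and Ankrd1 stayed lower in Drp1LiKO in both. Of 36 member differences 33 kept their sign throughout and 30 also their side of 2-fold. The other 3 were Spp1 under palmitate in control (0.01), Cd24a under palmitate in Drp1LiKO, which was 0.03 and turned to −0.34 on its dimmer probe, and Krt7 untreated, which turned to −0.19 when values below background were raised to the lowest value above it, an alternative chosen after seeing the data. The number of members past 2-fold untreated was then 1 in place of 2, as it was with normexp background correction (1) and with both arrays well above background (1), since Krt7 dropped out. For the same reason the number past 2-fold with palmitate in control was 0 under these alternatives in place of 1. With palmitate, 2 members in place of 1 were past 2-fold between the genotypes when a gene was read as the mean of its probes. The same held when the dimmest measured probe stood for the gene, an alternative chosen after seeing the data. The added one was Cd24a. Untreated, both these alternatives gave 3 members in place of 2, again by adding Cd24a. No background filter also gave 3 untreated, the added one being Epcam, lower in Drp1LiKO and not well above background on either array. Without a background filter the median of the mesothelial markers turned to −0.36 between the genotypes with palmitate and to 0.54 with palmitate in control. The limma count of genes called by genotype, 0 in the model as reported, was 5354 with an intensity trend, 2586 with genes well above background on all arrays (3 of 8 members), 1517 with normexp (2 of 9 members) and 0 with quantile normalization. No paired analysis was possible because the single array of each group leaves no replicate numbers to pair, and no replicate could be left out. The limma model still compares the genotypes within each slide, since its palmitate term is also the slide. Krt7 and Epcam, near or below background, limit what can be said of them, and an effect shared by animals of a genotype cannot be told from that of 1 culture.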
